A study of Mus musculus with 2 samples.

Results

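Kit-low mammary carcinoma nuclei were 94 of the 1838 barcodes in a single-nucleus RNA sequencing matrix made from sorted tumour-associated macrophage nuclei. They were 6.31% (exact Clopper-Pearson 95% interval 5.13 to 7.67%) of the 1489 barcodes that had 1000 or more unique molecular identifiers (UMIs, the counted transcript molecules) and at most 5% of them from mitochondrial genes. A nucleus entered the set when Epcam, Krt8, Krt18, Cdh1 and Elf5 together reached 1000 CPM (UMIs of the genes per 1000000 UMIs of that nucleus), when Ptprc, Csf1r, Adgre1 and Mertk together stayed under 300 CPM, and when Kit had at most 1 UMI. The nuclei were thus chosen by the measured levels of those 10 genes, so their values describe the set and carry no test. For comparison, 91 Kit-positive carcinoma nuclei met the same limits but held 2 or more Kit UMIs, and 1028 macrophage nuclei held 3 or more UMIs of the macrophage genes with the epithelial sum under 1000 CPM.

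The hosts were control-PyMT mice and MYC-PyMT mice, the latter carrying S100a8-cre and Rosa26-LSL-MYC, all with the PyMT mammary tumour transgene, whose promoter is not given in the sources used here, and backcrossed to B6. At 7 weeks of age both were lethally irradiated and given 3000000 bone marrow cells, whose donors were Fcgr1-cre-Rosa26LSL-H2B-mCherry/+, were moved to a low protein diet 2 weeks later and were killed 6 weeks after that. Tumour cells were sorted as CD45+, F4/80+ and Vcam+ and negative for DAPI, SiglecF, Ly6G, B220 and Ly6C, and their nuclei as mCherry+CD11b-SYTO9+, before 10x 3' sequencing of 1 library per genotype. The matrix marks its barcodes with 1 of 2 well numbers that no label ties to a genotype, so both libraries were read as 1 pooled sample, genotypes were not compared, and the number of mice behind each library is not given in the sources used here. S100a8 is a neutrophil gene and Fcgr1 a macrophage Fc receptor gene, and whether S100a8-cre acted in the host tumour epithelium was not tested. The mCherry reporter was carried by the donors' marrow, not by the host tumour. The Kit-low nuclei held 6 S100a8 UMIs (13.7 CPM, against 2.16 CPM in macrophage nuclei), 0 S100a9 UMIs, 1 Fcgr1 UMI (2.29 CPM, against 60.3 CPM) and 13 Myc UMIs (29.8 CPM, against 9.19 CPM).

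Luminal cells line the ducts and milk-producing alveoli of the mammary gland. They are joined by E-cadherin (Cdh1) and tight junctions, are braced by keratins 8 and 18, and carry Epcam on their surface. Elf5 drives the alveolar fate, and the receptor tyrosine kinase Kit marks luminal progenitors. Macrophages instead depend on the receptor Csf1r and carry the leukocyte phosphatase Ptprc, the F4/80 antigen Adgre1 and the engulfment receptor Mertk.

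The 94 nuclei together held 436513 UMIs. The shallowest nucleus held 1004, the median 3115.5 and the deepest 38700, which alone was 8.87% of the total. Macrophage nuclei were as deep (median 3197.5 UMIs), and Kit-positive nuclei were deeper (median 13823). Genes detected per nucleus had medians of 1797, 1685.5 and 4330 in Kit-low, macrophage and Kit-positive nuclei. Of the Kit-low nuclei, 79 came from well 1 (7.23% of its 1092 barcodes past the limits, interval 5.77 to 8.93%) and 15 from well 2 (3.78% of 397, interval 2.13 to 6.16%). No Kit-low nucleus shared its barcode with the other well, although 9 barcodes of the matrix occurred in both. There is no replicate, so intervals on CPM (exact Poisson) and on ratios of CPM (conditional binomial) cover counting error only.

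The 5 epithelial genes of the rule were spread over most of the set. Cdh1 was detected in 76 of 94 nuclei (653 CPM over the summed UMIs), Epcam in 69 (518 CPM), Krt8 in 69 (763 CPM), Krt18 in 62 (460 CPM) and Elf5 in 31 (144 CPM). Macrophage nuclei held 27.8, 28.4, 36.5, 25.7 and 14.3 CPM of the same genes, and Kit-positive nuclei 593, 508, 540, 366 and 227 CPM. At least 2 of the 5 genes were present in 92 nuclei, and 3 or more in 64. The evidence per nucleus was thin at the low end. The epithelial UMIs ran from 2 to 144 with a median of 7, and 12 nuclei were admitted on 2 UMIs. The 3 members nearest the epithelial limit stood at 1003, 1027 and 1054 CPM, and the 3 nuclei just outside it at 971, 925 and 912 CPM. On the macrophage side, 77 members held none of the 4 genes, 12 held 1 UMI and 5 held 2 UMIs. The highest members stood at 249, 232 and 228 CPM, the nearest nuclei outside at 319, 333 and 357 CPM, and 60 nuclei that met the other limits were kept out by this one.

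Kit (chr5:75574916-75656722, plus strand, GENCODE vM21 on GRCm38) had 0 UMIs in 60 members and 1 UMI in 34, while 17 of the Kit-positive nuclei held exactly 2. After each nucleus was thinned at random to 1000 UMIs, 18.1% of Kit-low, 37.4% of Kit-positive and 1.46% of macrophage nuclei still had a Kit UMI. At like depth the carcinoma sets stayed apart: among nuclei of 2000 to 10000 UMIs, Kit stood at 73.7 CPM in 47 Kit-low nuclei and at 794 CPM in 34 Kit-positive nuclei. Since the rule cut on Kit, that gap is a description.

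**Figure D1:**
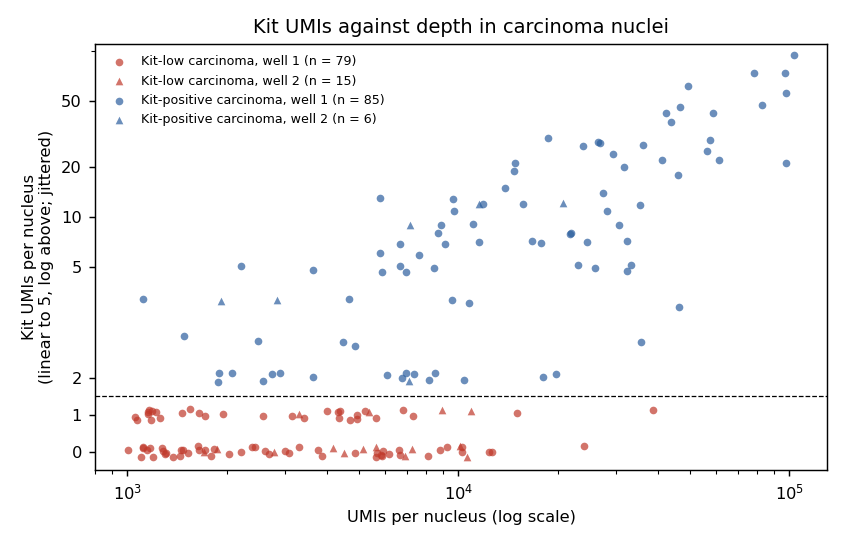
Kit UMIs (vertical axis, linear to 5 and logarithmic above, points jittered) against UMIs per nucleus (logarithmic) for the 94 Kit-low (red) and 91 Kit-positive (blue) carcinoma nuclei, with circles for well 1 and triangles for well 2. The dashed line is the limit of 1 Kit UMI; 37 of the Kit-low nuclei lie under 2000 UMIs, where 5 of the Kit-positive nuclei lie.

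Compared with macrophage nuclei, the Kit-low nuclei held most measured genes of the epithelial junction and luminal transcription factor lists at higher levels. Of 8559 genes outside the rule with 50 or more UMIs over both sets, 1730 were at least 2-fold higher in Kit-low nuclei (20.2%) and 1729 at least 2-fold lower (20.2%), with a median log2 ratio of 0.13. Against that background, 11 of the 12 luminal junction genes with enough UMIs were higher and none lower (median log2 ratio 4.17). The whole list of 18 summed to 2305 CPM (2164 to 2452) against 420 CPM in macrophage nuclei, a ratio of 5.49 (5.06 to 5.94). Esrp1, an epithelial splicing regulator, stood at 378 CPM against 15.7 CPM. The tight junction gene Ocln was 40.1-fold higher (119 against 2.97 CPM), and the claudin genes Cldn4 and Cldn7 27.2-fold (176 against 6.49 CPM) and 15.3-fold higher. The desmosome gene Pkp2 was 28.2-fold higher, and the keratin gene Krt7 27.2-fold higher. F11r, a junction adhesion gene that leukocytes also use, was the member that did not pass, at 174 CPM against 199 CPM.

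Luminal transcription factors were the most evenly carried of these programmes. Of 12 genes with enough UMIs, 11 were higher, beside 20.2% over all genes, with a median log2 ratio of 4.22. The list of 20 summed to 10268 CPM (9969 to 10573) against 2335 CPM, a ratio of 4.40 (4.24 to 4.56). Every Kit-low nucleus held UMIs of it, from 584 CPM in the lowest through a median of 9367 to 24480 CPM in the highest. Trps1, a GATA-type repressor of luminal cells, was the most abundant protein-coding transcript of the set at 4900 CPM, in 94.7% of nuclei, and macrophage nuclei held it too (1357 CPM, in 86.6%). Nfib, a factor of milk gene regulation, stood at 2685 CPM, in 92.6% of nuclei, against 108 CPM, in 11.4% of macrophage nuclei. The epithelial ETS factor Ehf stood at 552 against 28.9 CPM, the epithelial regulator Grhl2 at 199 against 7.84 CPM, and Gata3, the luminal master regulator, at 186 against 12.7 CPM. Sox10 (186 against 7.84 CPM) and Sox9 (192 against 17.8 CPM), both progenitor factors, were present together with them. Runx1, which macrophages also express, did not differ 2-fold (690 against 756 CPM).

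**Figure D2:**
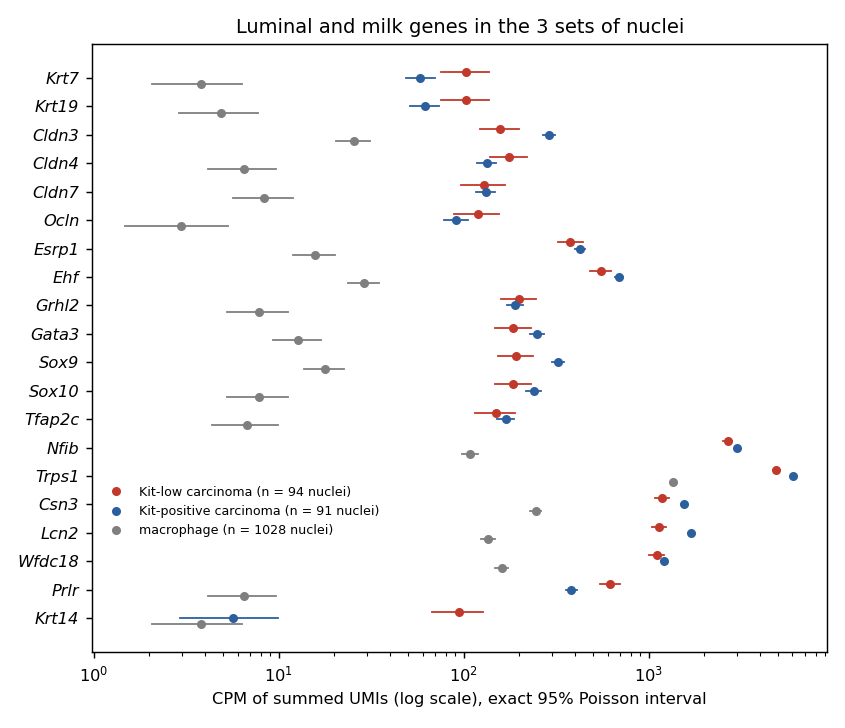
CPM over the summed UMIs (horizontal, logarithmic) of 20 junction, transcription factor, milk and other epithelial genes in Kit-low (red), Kit-positive (blue) and macrophage (grey) nuclei, with exact 95% Poisson intervals for counting error. The 2 carcinoma sets lie close together for most genes, with Krt14 apart at 93.9 CPM in Kit-low and 5.70 CPM in Kit-positive nuclei, and macrophage nuclei lie below Kit-low nuclei for each of the 20 genes.

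The mesenchymal repressors were on the macrophage side. Zeb2, which represses epithelial genes through CACCTG boxes, stood at 52.7 CPM in Kit-low nuclei (23 UMIs in 13 nuclei, 39.1% of them in 1 nucleus) against 2959 CPM in macrophage nuclei, where it is also a lineage factor. Zeb1 stood at 20.6 against 147 CPM. All 4 mesenchymal list genes with enough UMIs were lower than in macrophage nuclei, with a median log2 ratio of -2.37. The minimum was counted over both sets, and Kit-low nuclei held 132 UMIs of the whole list against 13102 in macrophage nuclei. The 4 genes thus passed it through the set where they are high, and 10 genes were under it, so the count carries no test. The list of 14 summed to 302 CPM against 3542 CPM, and to 101 CPM in Kit-positive nuclei. In that list the matrix gene Fn1 stood at 75.6 against 244 CPM and Vim at 45.8 against 171 CPM. The next lines print the upstream windows of Epcam and Cldn4, which hold the CACCTG box, and of Cldn3 (158 against 25.4 CPM), which holds none.

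The sequences are the 250 bases before the RefSeq start (GRCm38.p6, 5′ to 3′ on the gene's strand), with CACCTG or its reverse complement CAGGTG in capitals. Epcam lies on the plus strand at chr17:87635729-87635978, with boxes 187 and 19 bases before the start. Cldn4 lies on the minus strand at chr5:134946935-134947184, with 1 box 14 bases before the start. Cldn3 lies on the plus strand at chr5:134985964-134986213.
Epcam: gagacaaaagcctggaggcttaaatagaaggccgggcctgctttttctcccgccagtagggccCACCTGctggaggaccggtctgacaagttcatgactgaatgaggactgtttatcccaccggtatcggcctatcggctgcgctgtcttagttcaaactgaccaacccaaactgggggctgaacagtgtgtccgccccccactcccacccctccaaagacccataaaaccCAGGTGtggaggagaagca
Cldn4: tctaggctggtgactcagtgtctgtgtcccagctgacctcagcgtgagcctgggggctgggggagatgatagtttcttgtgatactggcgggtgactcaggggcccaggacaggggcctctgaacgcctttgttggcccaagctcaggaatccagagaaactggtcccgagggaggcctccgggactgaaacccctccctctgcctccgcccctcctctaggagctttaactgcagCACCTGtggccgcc
Cldn3: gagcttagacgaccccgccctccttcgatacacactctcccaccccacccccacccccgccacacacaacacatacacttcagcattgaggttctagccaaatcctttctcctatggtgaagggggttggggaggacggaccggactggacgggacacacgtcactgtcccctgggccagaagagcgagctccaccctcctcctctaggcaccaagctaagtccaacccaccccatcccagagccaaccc
Of the 23 epithelial rule and luminal junction genes, 15 had a window in the table; Cdh1, Krt19, Pkp2, Esrp1, Esrp2, Cdh3 and Perp were among those with none. Of their 19 windows, 10 held the box, against 5657 of 32851 promoter windows of the same length (17.2%). The box and these genes were chosen after the values had been seen, and a match is a description of letters, not a binding site.

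Milk and alveolar genes were expressed, unevenly. Their list of 22 summed to 5842 CPM (5617 to 6073) against 1518 CPM in macrophage nuclei, a ratio of 3.85 (3.67 to 4.03). Of 15 genes with enough UMIs, 11 were higher and 1 lower, beside 20.2% each way over all genes. Their median log2 ratio was 1.91. Per nucleus the list ran from 0 through a median of 4361 to 59357 CPM. The casein gene Csn3 stood at 1180 CPM against 245 CPM, lipocalin Lcn2 at 1141 against 136 CPM, the whey acidic protein family gene Wfdc18 at 1104 against 161 CPM and transferrin (Trf) at 710 against 192 CPM. Csn3 was also the milk gene with the most UMIs outside the carcinoma nuclei: 43.1% of macrophage nuclei had a Csn3 UMI, against 71.3% of Kit-low nuclei of like median depth. That macrophage signal was in well 1, at 357 CPM, and not in well 2, at 5.94 CPM. The Kit-low nuclei themselves held 1408 CPM of Csn3 in well 1 and 291 CPM in well 2. Cd14, a lipopolysaccharide coreceptor of macrophages, was the gene lower in Kit-low nuclei (32.1 against 98.7 CPM).

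Hormone receptor transcripts were detected in a minority of nuclei, and most Prlr UMIs lay in 2 of them. Prlr, the prolactin receptor gene (chr15:10177238-10349180, plus strand), had 270 UMIs (619 CPM, against 6.49 CPM in macrophage nuclei) in 38 of the 94 nuclei (40.4%, against 1.17% of macrophage nuclei). A single nucleus of 12613 UMIs held 123 of them, and a second of 5856 UMIs held 58, so that 2 nuclei carried 67.0% of the total. Without them Prlr stood at 213 CPM. The first nucleus also held 10 of the 33 Esr1 UMIs, no Elf5 and 3 Csn3 UMIs; the second held 1 Esr1 UMI, no Elf5 and no Csn3. Both had Krt8 and Krt18 and none of the 4 macrophage genes of the rule. Esr1, the estrogen receptor, was in 12 nuclei, 10 of which also had Prlr, but its level (75.6 CPM) was not 2-fold above that in macrophage nuclei (53.3 CPM). Prlr was not particular to the Kit-low set: among nuclei of 2000 to 10000 UMIs it stood at 473 CPM, against 678 CPM in Kit-positive nuclei.

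Basal keratins appeared in a small subset. Krt14 (chr11:100203162-100207548, minus strand) was in 9 nuclei (9.57%, against 1.36% of macrophage nuclei) and Krt17 in 6 (6.38%, against 0.681%), with both in 5. Krt14 stood at 93.9 CPM in Kit-low, 3.79 CPM in macrophage and 5.70 CPM in Kit-positive nuclei, a ratio of 16.5 (8.49 to 34.4) between the carcinoma sets, and Krt17 at 52.7, 1.89 and 2.85 CPM. Of the 9 nuclei with Krt14, 8 also held Krt8 or Krt18. The exception had 9223 UMIs, 10 of them Krt14, 4 Krt17, 18 of the laminin gene Lama3 and 16 of the activin inhibitor gene Fst, with 0 Krt8 and 0 Krt18. It also held 7 Postn UMIs, a matrix gene of fibroblasts, and 2 UMIs of the macrophage rule genes. Another nucleus of 6901 UMIs, from well 2, held 6 Krt14, 6 Krt17, 6 Acta2, 10 Tagln and 10 Lama3 UMIs with 3 Krt8 and 3 Krt18. It carried every one of the 10 Erg UMIs of the set, an endothelial factor gene, and 31 of the 56 UMIs of the ErbB ligand gene Nrg1. The contractile genes Acta2 and Tagln mark myoepithelium and smooth muscle alike. Trp63, the basal master regulator, had 0 UMIs in these basal-keratin nuclei. The basal list as a whole stood at 1058 against 427 CPM (ratio 2.48, 2.23 to 2.75), with Itga6 (559 CPM) its most abundant gene. Of the 462 UMIs of the list, 80 lay in the nucleus with Fst and 67 in the nucleus with Erg. The ratio without these 2 nuclei was not computed, so a 2-fold difference over the rest of the set is not shown.

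Growth factor receptor genes were mostly higher. Of 13 receptor tyrosine kinase genes with enough UMIs, 10 were at least 2-fold higher than in macrophage nuclei and 1 lower, with a median log2 ratio of 2.99. Fgfr1 stood at 449 against 89.8 CPM, Erbb4 at 302 against 19.2 CPM and Egfr at 167 against 21.1 CPM. The gene lower was Axl (20.6 against 312 CPM), a receptor macrophages use to clear dying cells. Genes of the proteins that middle T antigen engages, the Src family kinases, PI3-kinase, Shc adaptors and the YAP branch, went both ways, with 6 of 21 higher, 3 lower and a median log2 ratio of 0.16, near the 20.2% each way and the median of 0.13 over all genes. Yes1, a Src family kinase, was 34.6-fold higher (234 against 6.76 CPM), Wwtr1 and Yap1, the TAZ and YAP coactivators, 22.8-fold and 19.1-fold higher, and the focal adhesion kinase gene Ptk2 17.5-fold higher. Gab2, an adaptor of leukocyte receptors, was lower at 410 against 2654 CPM, Grb2 at 124 against 656 CPM and Pik3cb at 140 against 414 CPM. In the Notch and Wnt list 5 of 11 genes were higher, among them the stem cell receptor Lgr4 (254 against 11.9 CPM) and Notch3 (82.5 against 5.68 CPM), and 2 lower, Notch2 and Rbpj.

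Transcripts for ligands that reach macrophages were mixed. Of 16 such genes with enough UMIs, 5 were higher and 10 lower, beside 20.2% each way over all genes. The list sum did not differ (1966 against 1996 CPM). Anxa1, an annexin that restrains inflammation, stood at 330 against 39.2 CPM, the cytokine gene Mif at 220 against 40.6 CPM, Vegfa at 195 against 49.2 CPM and Tgfb2 at 131 against 7.84 CPM. Cx3cl1, the membrane chemokine that Cx3cr1 binds, had 22 UMIs (50.4 against 1.62 CPM), in 12.8% of nuclei against 0.584% of macrophage nuclei, and Csf1, the macrophage growth factor, 14 UMIs (32.1 against 7.84 CPM), in 8.51% against 1.75%. Tgfb1 was lower (32.1 against 244 CPM), as were Cd47 (57.3 against 201 CPM) and Cxcl16 (27.5 against 291 CPM). The ligand of Kit, Kitl, stood at 91.6 against 22.2 CPM, in 21.3% of nuclei against 4.28%.

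Mitotic transcripts were concentrated in a minority of nuclei. Of 7 G2/M genes with enough UMIs, 6 were higher than in macrophage nuclei and none lower, beside 20.2% each way over all genes. The G2/M list of 18 stood at 641 CPM (569 to 721) against 194 CPM in macrophage nuclei, a ratio of 3.30 (2.87 to 3.80). Its median per nucleus was 0, 56 of 94 nuclei had none, and the highest stood at 14010 CPM. That highest nucleus, of 1713 UMIs, held 2 epithelial UMIs and 33 UMIs of the macrophage list (19264 CPM). Among the 94 nuclei, 4 held 50% of the UMIs of the G2/M list and 7 held 73.9%, all from well 1. The 7 held from 20 to 44 UMIs of it, with Mki67 in 6 of them and Top2a, the mitotic topoisomerase, in all 7. The S phase list did not differ between the sets (415 against 406 CPM). Against Kit-positive nuclei the G2/M list stood at 641 and 451 CPM over all nuclei (ratio 1.42, 1.24 to 1.63). In that comparison 0 of 8 genes passed 2-fold, a count near the 4.06% higher and 3.79% lower over all genes. Among nuclei of 2000 to 10000 UMIs, where 6 of the 7 mitotic nuclei lay, the list stood at 967 and 189 CPM. That window held 223 of the 280 Kit-low UMIs of the list but 39 of the 949 Kit-positive ones, so the gap depends on the window.

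Stress and nutrient lists moved less than the lineage lists. Their counts below stand beside 20.2% higher and 20.2% lower over all genes. Heat shock genes summed to 6543 against 4280 CPM (ratio 1.53, 1.47 to 1.59), with 4 of 12 higher; the small chaperone gene Hspb1 was 22.1-fold higher (16.8 to 29.3) at 442 CPM. Immediate early genes were close to even (4919 against 4427 CPM). Of 20 hypoxia and glycolysis genes with enough UMIs, 13 were higher and 1 lower, with a median log2 ratio of 1.24; Ndrg1 stood at 282 against 24.1 CPM, Pgk1 at 160 against 37.3 CPM and Egln3, the oxygen sensor, at 119 against 5.68 CPM, and the gene lower was Pfkfb3. The amino acid response list of Atf4 targets summed to 1430 against 993 CPM, with 4 of 14 higher and 1 lower. Amino acid transporter genes went the other way, with 9 of 18 lower and 3 higher. The glutamine transporter gene Slc38a2 was higher (417 against 184 CPM), and the large neutral amino acid transporter genes Slc7a8 (13.7 against 258 CPM) and Slc43a2 (22.9 against 379 CPM) lower. Of 20 mTORC1 genes, 3 were higher and 2 lower, no more than the 20.2% each way over all genes; the inhibitor gene Deptor stood at 435 against 171 CPM, and Fnip2, a folliculin partner, at 149 against 817 CPM. Both libraries came from mice on low protein, so diet was not compared.

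The interferon and MHC class I list was even, at 2783 against 2765 CPM, and rested on the deepest nucleus. That nucleus held 42.2% of the list's UMIs, at 13256 CPM, and 57.2% of those of B2m and 75.8% of those of Ifit1. Without it the list stood at 1765 CPM and B2m at 224 CPM in place of 477 CPM.

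**Figure D3:**
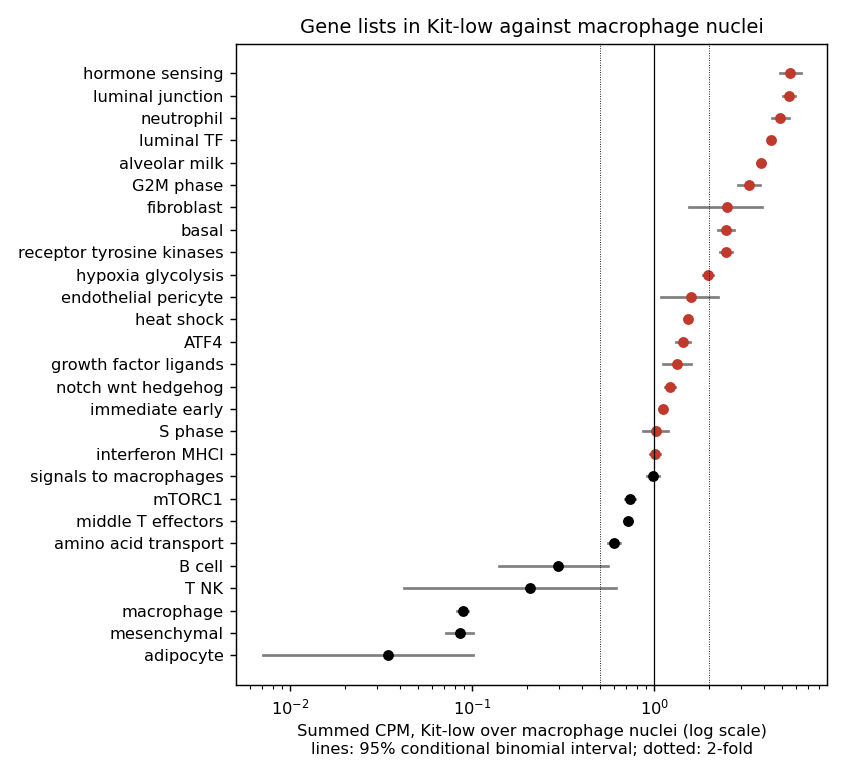
Ratio of summed CPM, Kit-low over macrophage nuclei (logarithmic), for each gene list with 50 or more UMIs over both sets; red points are at or above 1 and black points below, lines are 95% conditional binomial intervals for counting error, and dotted lines mark 2-fold. The luminal lists lie at 3.85 to 5.49 and the macrophage list at 0.0885; the neutrophil list lies high through Lcn2 and Ltf, which the milk list also holds.

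Transcripts of macrophages were low but not absent. All 25 genes of the macrophage list were lower than in macrophage nuclei, with a median log2 ratio of -3.94, and the list summed to 2073 CPM (1940 to 2213) against 23426 CPM. Cd68 and Spi1 had 0 UMIs; Zeb2 is in this list too. Elmo1, an engulfment adaptor gene that the Kit-positive nuclei held equally (800 against 783 CPM), made up the largest share, followed by Apoe (215 CPM) and Cd74 (208 CPM). Per nucleus the list ran from 0 through a median of 1815 to 40752 CPM, and in macrophage nuclei from 662 through 22849 to 58352 CPM, so the sets overlapped. The 37 Kit-low nuclei under 2000 UMIs held 5877 CPM and the 57 deeper ones 1568 CPM. Of the 16 nuclei over 5000 CPM, 15 were under 2000 UMIs, and 5 nuclei over 10000 CPM held 2 to 6 epithelial UMIs beside 19 to 52 UMIs of the macrophage list. Leaving out the 16 left 1727 genes higher and 1745 lower of 8518, counts that do not measure the part of these nuclei in single ratios. With 2000 or more UMIs per nucleus the ratio of the macrophage list was 0.0666, in place of 0.0885. Markers of other lineages were few: the T and NK cell list had 3 UMIs (6.87 CPM), the adipocyte list 3 UMIs, the B cell list 10 UMIs (22.9 CPM), the mast cell list 6 UMIs and the endothelial and pericyte list 39 UMIs (89.3 CPM, against 56.5 CPM in macrophage and 40.9 CPM in Kit-positive nuclei). The fibroblast list had 26 UMIs (59.6 CPM, against 23.8 and 10.5 CPM; ratio to macrophage nuclei 2.50, and 7.60 in well 1 alone), of which 42.3% lay in the nucleus with Fst described above.

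**Figure D4:**
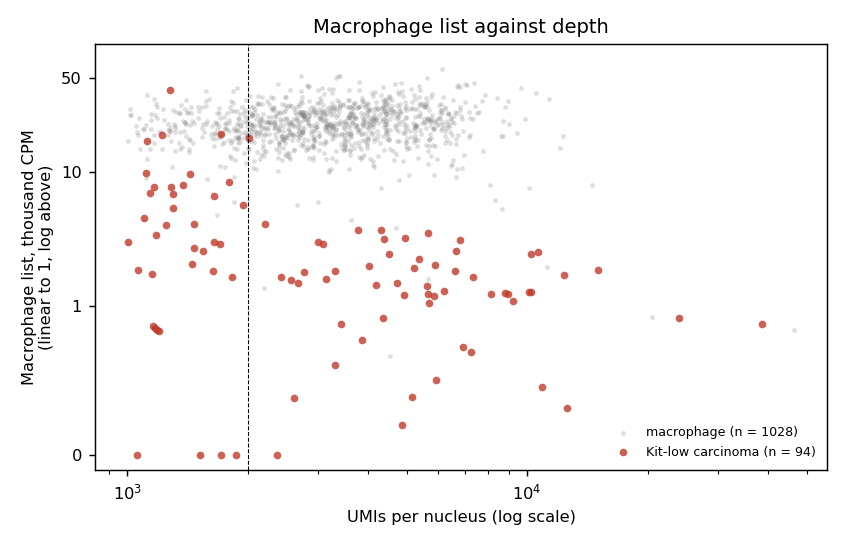
CPM of the 25-gene macrophage list per nucleus (linear to 1000, logarithmic above) against UMIs per nucleus (logarithmic) for Kit-low (red) and macrophage (grey) nuclei. The dashed line marks 2000 UMIs; of the 16 Kit-low nuclei over 5000 CPM, 15 lie to its left.

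Sex chromosome transcripts differed between Kit-low and macrophage nuclei in well 2 and were alike in well 1. In well 2, macrophage nuclei held Y-linked transcripts of 4 genes (Ddx3y, Eif2s3y, Kdm5d and Uty) at 660 CPM, in 79.6% of 323 nuclei, and Xist at 5.09 CPM, in 0.929%. The 15 Kit-low nuclei of well 2 held 0 Y-linked UMIs and Xist at 941 CPM, in 7 of the 15. The count of 0 allows a share of up to 20% of those nuclei with a Y-linked UMI by the floor of 3 counts (exact upper bound 21.8%), which limits detection and not expression. The 8 nuclei without Xist, with neither kind of transcript, had from 2769 to 10905 UMIs. In well 1, 73 of 79 Kit-low nuclei held Xist (1918 CPM), close to the 1839 CPM of macrophage nuclei there, which held Y-linked transcripts at 0.397 CPM.

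By the size of the ratio, the 15 genes highest over macrophage nuclei were Zfp827, Map1b, Arhgef38, Greb1l, Pak3, Rgs20, Smoc1, Neo1, Timp3, Ltbp1, Eya2, Zfp521, Ptprk, Vtcn1 and Igsf5, at 47.1-fold to 161-fold. Ptprk, a receptor phosphatase of epithelial contacts, was the best counted, with 695 UMIs in 75.5% of nuclei, against 4.96% of macrophage nuclei (1592 against 32.4 CPM, ratio 49.1, 40.4 to 60.1). In well 1 alone the ratio of Ptprk was 28.8, that of Smoc1 33.2 in place of 68.4, that of Greb1l 39.9 in place of 75.2, that of Zfp827 106 and that of Map1b 341 in place of 103. The ratio of Zfp827 over both wells, 161 (52.4 to 804), rested on 3 UMIs in macrophage nuclei. Vtcn1, the B7-H4 checkpoint ligand gene, stood at 103 against 2.16 CPM, in 16 Kit-low nuclei and with 8 UMIs in all macrophage nuclei. Timp3, a metalloproteinase inhibitor gene, stood at 360 against 6.22 CPM, in 19.1% of Kit-low against 2.04% of macrophage nuclei. Among the 10 lowest were F13a1, Pik3r5, Syk, Aoah, March1, Mndal, Cd86, Mir142hg and Grap2, leukocyte genes with 1 to 7 UMIs in the whole Kit-low set; the kinase gene Syk had 2 UMIs (4.58 CPM, against 447 CPM). F13a1, a coagulation factor gene of macrophages, had a ratio of 0.00527 over both wells and 0.158 in well 1 alone, since macrophage nuclei held 18.3 CPM of it in well 1 and 1324 CPM in well 2. In well 1 alone Pik3r5, Syk and Aoah stood at 0.0144, 0.0157 and 0.0366, in place of 0.00925, 0.0102 and 0.0103. Predicted gene models aside, the most abundant transcript was the nuclear RNA Malat1 (40196 CPM), followed by Trps1, Neat1 (3812 CPM), Auts2 (3324 CPM), Nfib and Igfbp5 (2257 CPM), an insulin-like growth factor binding protein gene.

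Kit-low and Kit-positive nuclei were far more alike. Of 7775 genes with enough UMIs, 316 (4.06%) were at least 2-fold higher in Kit-low nuclei and 295 (3.79%) at least 2-fold lower, with a median log2 ratio of -0.02. None of 17 luminal junction genes was higher and 2 were lower, Cldn3 (158 against 290 CPM) and Prom1 (41.2 against 88.4 CPM). Of 15 luminal factor genes 1 was higher, Tcf7l1, a Wnt-responsive repressor (110 against 39.4 CPM). The mesenchymal list was higher, at 302 against 101 CPM (ratio 3.00, 2.40 to 3.75), with 1 of 2 genes with enough UMIs past 2-fold. Among nuclei of 2000 to 10000 UMIs that list stood at 265 against 107 CPM. The milk list was lower, at 5842 against 9013 CPM (ratio 0.648, 0.622 to 0.676). Spp1, the osteopontin gene, stood at 463 against 1741 CPM, and Ltf, Lalba, Muc15 and Xdh were the other milk genes at least 2-fold lower. Igfbp5 was lower at 2257 against 6956 CPM, a ratio of 0.324 (0.304 to 0.346), and at 1549 against 5177 CPM among nuclei of 2000 to 10000 UMIs. The wells were unequally shared: 85 Kit-positive nuclei came from well 1 and 6 from well 2, against 79 and 15 Kit-low nuclei. Within the Kit-low set the milk list stood at 6580 CPM in well 1 and 2969 CPM in well 2. The part of the well in the milk list, Igfbp5 and Krt14 differences between the carcinoma sets was not tested.

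Among the 8 genes highest over the Kit-positive nuclei were Ctss, H2-Eb1, Pak3, H2-Aa, H2-Ab1 and Klf10, at 3.37-fold to 4.98-fold. Ctss, a lysosomal protease gene, and the MHC class II genes H2-Eb1, H2-Aa and H2-Ab1 are also in the macrophage list. Of its 9 genes with enough UMIs, 8 were higher, beside 4.06% over all genes. That list stood at 2073 against 1125 CPM over all nuclei (ratio 1.84), and at 1787 against 1995 CPM among nuclei of 2000 to 10000 UMIs. With 2000 or more UMIs per nucleus, Ctss, H2-Eb1, H2-Aa and H2-Ab1 had ratios of 2.90, 3.25, 2.64 and 2.32. Over all nuclei they had ratios of 4.98, 4.44, 4.30 and 3.58. Pak3, a Rac-regulated kinase gene, stood at 117 against 26.6 CPM. The lowest were Zfp536, Krt23, Wdr72, Mapre3, Ackr3, Prepl, Bc1 and Otx1, each with 1 or 2 UMIs in Kit-low nuclei, so that their intervals were wide; Krt23 had a ratio of 0.0927 (0.0023 to 0.540).

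Within the Kit-low set, ribosomal protein transcripts and the well varied together. Ribosomal protein genes stood at 25621 CPM over the set, against 13124 CPM in Kit-positive and 10068 CPM in macrophage nuclei, and ran from 4837 through a median of 15423 to 333888 CPM per nucleus. They stood at 20235 CPM in well 1 and 46579 CPM in well 2. Igfbp5 stood at 2779 and 224 CPM, Prlr at 752 and 101 CPM, Erbb4 at 371 and 33.6 CPM and Krt14 at 54.7 and 247 CPM in wells 1 and 2. Mitochondrial transcripts stood at 2371 CPM in Kit-low, 1648 CPM in Kit-positive and 589 CPM in macrophage nuclei, and their part in these differences was not tested. Epithelial transcripts in macrophage nuclei differed between the wells too, with Epcam at 38.1 and 7.63 CPM and Igfbp5 at 511 and 5.09 CPM.

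**Figure D5:**
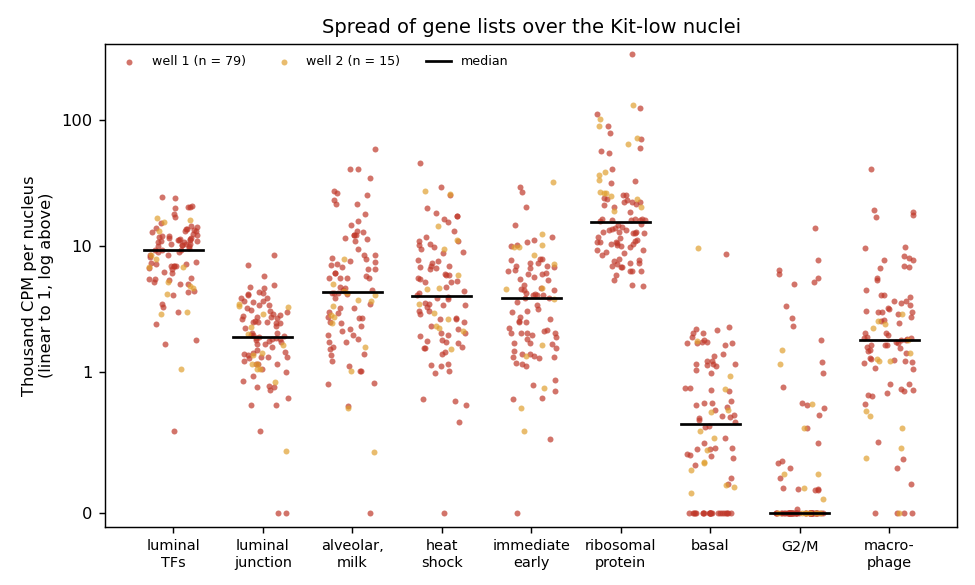
CPM in units of 1000 (linear to 1, logarithmic above) of 9 gene lists in each of the 94 Kit-low nuclei, with well 1 in red, well 2 in orange and the median as a bar. Luminal factors are present in every nucleus, while the G2/M list has a median of 0 and the basal, macrophage and ribosomal protein lists have long upper tails.

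Clustering on a random part of each nucleus's counts gave 2 groups, described here on the counts held out. Group 1 had 64 nuclei, 63 of them from well 1. Group 2 had 30 nuclei, 16 from well 1 and 14 of the 15 from well 2, at a like median depth (3115.5 and 3153 UMIs). Ribosomal protein genes stood at 12839 CPM in group 1 and 43890 CPM in group 2. Group 1 was higher in Igfbp5 (3308 against 941 CPM), Prlr (949 against 151 CPM) and the G2/M list (897 against 186 CPM). Group 2 was higher in Csn3 (1720 against 844 CPM), Lcn2 (1767 against 723 CPM) and the Atf4 list (2081 against 957 CPM), and Cdh1 was even (593 against 595 CPM). The nucleus with most UMIs of each held 42.86% of Prlr, 18.22% of Igfbp5 and 15.97% of the G2/M list in group 1. In group 2 that share was 27.03% for Csn3, 34.87% for Lcn2 and 28.49% for the Atf4 list. The differences without these nuclei were not tested. The leading genes of group 1 were Ctdspl, Celsr2, Cbx6, Lifr, Clca3a2 and Hs6st3, at 13.6-fold to 18.1-fold, and those of group 2 Fn1, Isyna1, Sec61g, Nme2, Psmc2 and Itga3, at 13.1-fold to 20.1-fold, all against 1 or 2 UMIs. The split was not stable: another random split of the counts gave 2 groups whose adjusted Rand index with these was 0.121, where 1 is identity.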

How the data were processed

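The deposited matrix holds whole-number UMI counts of 32285 genes in 1838 barcodes, made with Cell Ranger 5.0 on mm10 per the submitters' processing notes (5.0.1 per the file headers). The authors' counts were used as deposited. Sums over nuclei were divided by all UMIs to give CPM. Genes with 50 UMIs over both sets and outside the rule were called at 2-fold, with a set at 0 put at a floor of 3 counts. No p-value was computed, since there is 1 pooled sample. The intervals are exact at 95%.

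The members, gene lists and alternatives were chosen with earlier results of these data known. Named genes were the 15 highest and 10 lowest ratios to macrophage nuclei, the 15 most abundant, the 8 highest and 8 lowest ratios to Kit-positive nuclei, the 6 leading genes of each sub-cluster, all rule genes and up to 4 leading members of each of the 30 lists. Minimums for the highest were 20 CPM and 30 UMIs in 10 nuclei, with at most 25% of the UMIs in 1 nucleus, and for the lowest 50 CPM in macrophage nuclei. A few genes that the rule names are not reported here. Genes outside this rule that are singled out (the nuclei rich in Prlr or Krt14, sex-linked genes, promoter windows) were chosen after their values were seen. Sub-clusters used Leiden (scanpy 1.11.5, leidenalg 0.10.2) at resolution 0.5 on 1 random part of the counts. Scrublet called 4 of 1838 barcodes (0.218%, none Kit-low). Whether it missed doublets was not tested, and doublets were not removed. Gene calls were tested on simulated data. Promoter sequences are RefSeq's (GRCm38.p6).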

Additional observations from a re-analysis of the deposited data

How the results depend on the processing

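The 94 nuclei became 57 at 2000 or more UMIs and 60 with Kit at 0, 82 with 3 or more epithelial UMIs and 79 in well 1 alone. Genes higher than in macrophage nuclei (1730) numbered 567 of 4466 after thinning to 1000 UMIs, 5431 of 19750 with no minimum of UMIs and 885 at 3-fold; fewer genes reached the minimum after thinning. Genes higher than in Kit-positive nuclei (316) numbered 26 of 696 after thinning, 2135 of 18594 with no minimum and 72 at 3-fold. Genes lower than in Kit-positive nuclei (295) numbered 614 with Kit at 0, 505 by the mean of CPM per nucleus, 475 without the 5 deepest nuclei, 18 after thinning, 876 with no minimum and 74 at 3-fold; the cause was not tested. Sub-clusters numbered 6 at resolution 1. Genes lower than in macrophage nuclei stayed within 1.5 times the main count throughout. Of 30 list ratios, 11 to 13 were at least 2-fold higher and 4 or 5 lower under the 10 alternatives in which lists were counted. That tally is a description: 1 of the 30 lists holds genes leading in earlier results of these data (ratio 9.65). The neutrophil list shares Lcn2 and Ltf with the milk list. The mast cell list (ratio 12.7) rests on 6 and 4 UMIs, and the T and NK cell and adipocyte lists on 3 Kit-low UMIs each. No called ratio of a named gene or list turned its direction under the alternatives that gave a value. Leaving out the 16 Kit-low nuclei over 5000 CPM of the macrophage list was chosen after seeing the data. No paired analysis was possible because there is 1 library per group and the barcodes carry no replicate number. Depth limits each nucleus to a median of 7 epithelial UMIs, so single nuclei cannot be placed firmly.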

Other observations

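Between Kit-low nuclei under and at or above 2000 UMIs, Igfbp5 stood at 6326 and 1716 CPM and the milk list at 9391 and 5370 CPM, while the luminal factor list stood at 8883 and 10452 CPM. Well 2 members were deeper than those of well 1 (median 5360 against 2567 UMIs). They also held less Igfbp5 (224 against 2779 CPM) and milk list (2969 against 6580 CPM). The part of the well in the depth difference was not tested. Hmga2, a chromatin factor gene of progenitors, had 17 UMIs in 5 Kit-low nuclei (38.9 CPM), 52.9% of them in 1 nucleus, against 1.90 CPM in Kit-positive nuclei. Fosl1, an AP-1 gene, had 14 UMIs in 3 Kit-low nuclei, against 1 UMI in all macrophage nuclei.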
